A study of Homo sapiens with 12 samples.

Results

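The comparison is that of MDA-MB-231 cells given glutamine alone with cells given neither glutamine nor glucose. MDA-MB-231 is an established human breast adenocarcinoma line of triple-negative, mesenchymal character, and all libraries come from this 1 line, so other cells are not covered. The glutamine-only medium held 4 mM glutamine and no glucose, and the deficient medium held neither nutrient. Where a further pair of media is used, 25 mM glucose and 4 mM glutamine made up the full medium, and 25 mM glucose alone the glucose-only medium. All media carried 3% serum for 36 h after growth in 10% serum, so serum was present in every group. The comparison uses 6 of the 12 libraries of the series, A, B and C of each medium, and the 9270 of 63187 genes whose normalized count reached 10 or more in 3 or more of the 12 libraries.

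Glutamine, the most abundant amino acid of plasma, supplies nitrogen for nucleotides, amino sugars and other amino acids, and carbon for the tricarboxylic acid cycle. Cells short of amino acids raise the transcription factor ATF4 through the kinase GCN2, and cells with unfolded proteins raise heat shock genes through HSF1 in the cytosol and chaperones of the endoplasmic reticulum (ER) through XBP1 and ATF6. When sterols are scarce, SREBP factors are cut free and switch on cholesterol and fatty acid synthesis. MDA-MB-231 cells are known for dependence on external glutamine.

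Stranded total RNA, depleted of ribosomal RNA, was read to 930776 to 1473587 reads assigned to genes in the 6 libraries, with 17622 to 19817 genes detected, and 1 read was worth 0.777 to 1.30 normalized counts. Whether libraries A, B and C were separate cultures is not stated in the labels, which give them all 1 batch number, so the p-values measure the spread between these libraries, which may be technical. All markers of fibroblasts, blood cells and adipocytes stayed under 10 in every library, as did 5 of 7 endothelial markers. The endothelial markers past 10 were PECAM1, at 9.02, 10.6 and 11.2 in glutamine-only against 3.90, 7.24 and 2.33 in deficient libraries, and KDR, at 5.41, 3.85 and 7.46 against 14.3, 15.7 and 12.4. Of 12 luminal epithelial markers, 9 stayed under 10 in every glutamine-only library and 8 in every deficient one. Among these CDH1 and ELF5 were listed at 0 in both media. The summed level of the 12 was 466 to 490 in glutamine-only and 505 to 561 in deficient libraries. The 5 luminal markers that were tested made up 460 to 482 and 504 to 554, with 2 higher and 1 lower in glutamine-only medium. Genes the line is known to express summed to 2398 to 2436 in glutamine-only and 3508 to 3860 in deficient libraries. Mitochondrial ribosomal RNA took 14.2, 14.1 and 13.6% of reads in glutamine-only libraries A, B and C, against 15.3, 17.1 and 15.6% in deficient ones. Nuclear protein-coding genes took 44.4, 46.8 and 50.5% against 43.9, 39.6 and 47.8%. Whether these shares act on the results was not tested.

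Cells with glutamine alone had lower heat shock, immediate early, ribosome biogenesis and YAP target RNA than cells without either nutrient, and higher sterol, fatty acid, glycolysis, hypoxia and mitosis RNA. DNAJB1, a co-chaperone of HSP70, stood at 161, 175 and 186 normalized counts in glutamine-only libraries and at 3341, 3502 and 3617 in deficient ones. Limma called 3844 of the 9270 genes at an adjusted p under 0.05, of which 1844 (19.9% of those tested) were higher and 2000 (21.6%) were lower in glutamine-only medium. Of these, 768 were higher and 695 lower by at least 2-fold. In bulk RNA, fewer cells of a kind and less RNA per cell cannot be told apart. Changes below are differences of log2(normalized count + 1) between media, glutamine-only minus deficient, with their standard error, and they understate the change of genes with few reads. The scale of the libraries matters: as deposited, 48.0% of the genes past the threshold were higher, and 75.0% were after setting the libraries to equal totals, which moves the median of all genes to 0.26 from -0.01 on the log2 scale. Changes are given as deposited, and where the direction of a list's median, or the balance of its higher and lower members, turns under equal totals, both values are given.

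**Figure D1:**
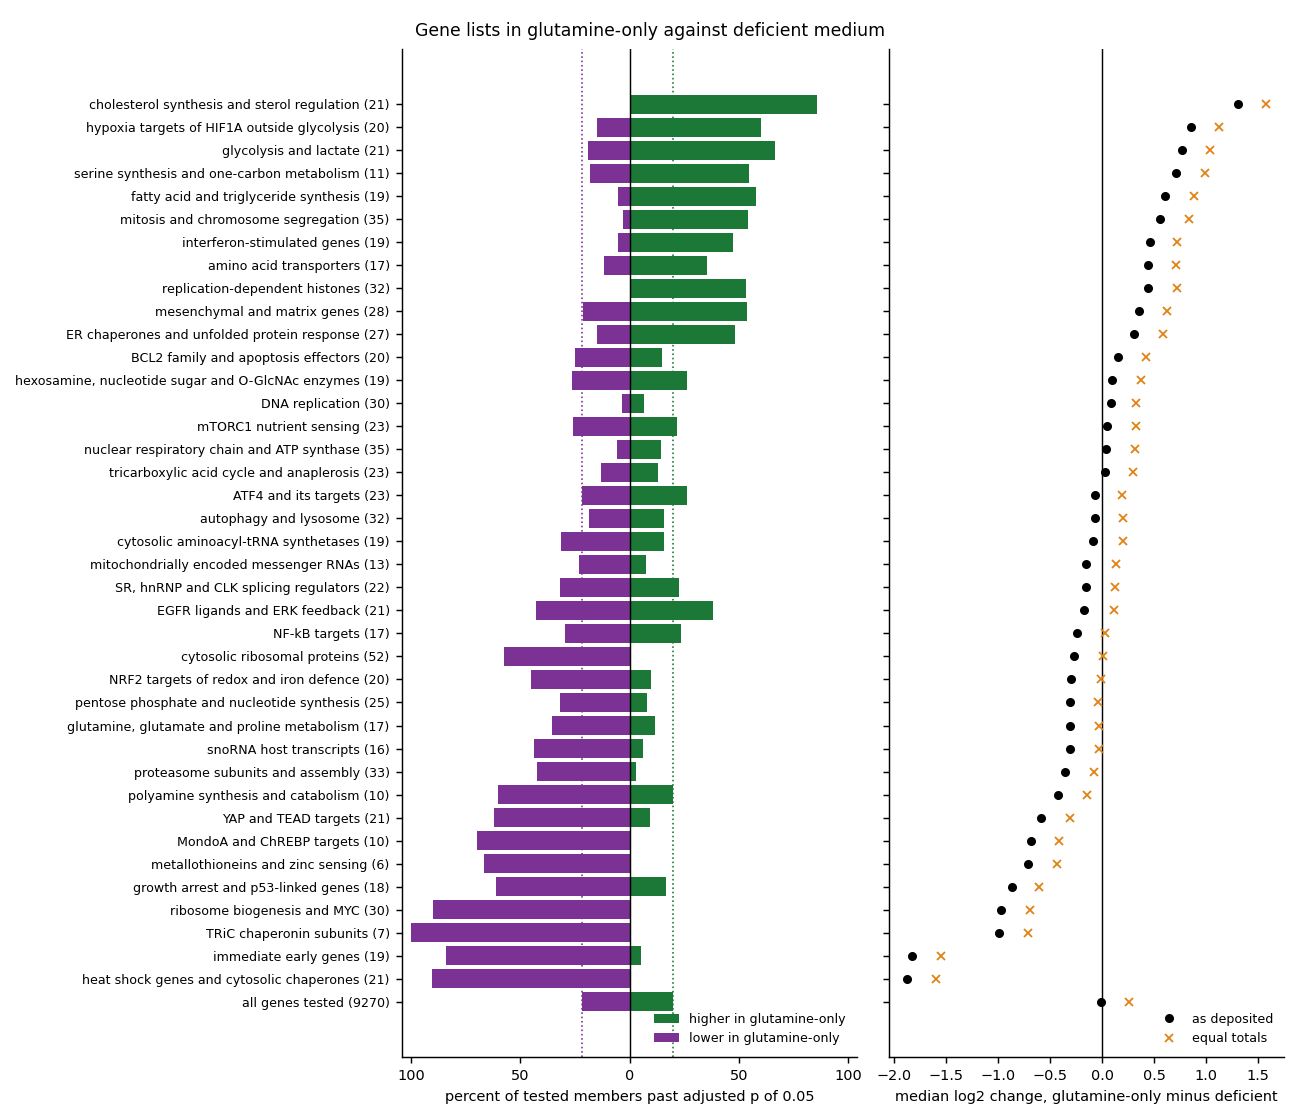
Percent of the tested members of 39 gene lists, and of all tested genes at the bottom, that were higher (right of 0) or lower (left of 0) in glutamine-only against deficient medium at an adjusted p under 0.05, with dotted lines at the 19.9% and 21.6% of all genes, and at the right the median log2 change of each list as deposited (circles) and with equal totals (crosses). Numbers in brackets count tested members. Cholesterol synthesis stands at the top with a median of 1.30 and heat shock genes at the bottom of the lists with -1.88.

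The promoters of the named heat shock, ER chaperone and ATF4 target genes with the largest changes that hold a match to a known element are shown first, because the lists below differ in which elements their promoters carry. The sequences are from RefSeq on GRCh38.p14, 120 bases each, read along the gene's strand, and end 1 base before the annotated start, except ATF3, whose stretch ends 122 bases before it. Capitals mark the match. A heat shock element match of 3 blocks is a run of GAA and TTC that alternate with any 2 bases between them, whichever block comes first. The form of 2 blocks was searched as GAANNTTC only, so TTC followed by GAA was neither marked nor counted. The ER stress element was searched as CCAAT, any 9 bases and CCACG, and the C/EBP-ATF response element as TGATGNAA, all on both strands.
DNAJB1, chr19:14518398-14518517, minus strand, 2 matches of 2 blocks: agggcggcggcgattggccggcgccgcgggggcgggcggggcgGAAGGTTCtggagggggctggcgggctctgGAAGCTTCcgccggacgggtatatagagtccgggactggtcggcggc
HSPA6, chr1:161524420-161524539, plus strand, 1 match of 3 blocks: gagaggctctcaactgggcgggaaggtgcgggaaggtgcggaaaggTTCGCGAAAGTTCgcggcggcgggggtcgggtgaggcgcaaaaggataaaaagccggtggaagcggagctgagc
HSP90AA1, chr14:102087045-102087164, minus strand, 1 match of 3 blocks: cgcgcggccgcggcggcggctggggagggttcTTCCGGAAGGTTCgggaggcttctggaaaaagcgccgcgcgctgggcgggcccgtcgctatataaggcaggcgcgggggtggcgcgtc
CRELD2, chr22:49918514-49918633, plus strand, ER stress element on the opposite strand: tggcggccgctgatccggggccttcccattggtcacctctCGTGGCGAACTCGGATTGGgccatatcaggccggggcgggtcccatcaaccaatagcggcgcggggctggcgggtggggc
XBP1, chr22:28800570-28800689, minus strand, ER stress element: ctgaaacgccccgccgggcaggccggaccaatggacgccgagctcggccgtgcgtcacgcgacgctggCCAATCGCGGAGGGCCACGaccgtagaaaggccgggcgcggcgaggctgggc
ATF3, chr1:212565166-212565285, plus strand, C/EBP-ATF response element: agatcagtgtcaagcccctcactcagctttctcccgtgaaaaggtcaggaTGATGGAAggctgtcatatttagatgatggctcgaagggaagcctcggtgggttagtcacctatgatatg

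Over the 300-base windows of 35116 promoters, 3 blocks of the heat shock element were found in 0.490%. Counted by gene, they were found in 0.608% of 27305 genes and in 8 of the 20 heat shock genes with a promoter in the table, against 0 of 25 ER chaperone and 0 of 21 ATF4 target genes. The looser 2-block form, which every 3-block match also holds, was in 8.21% of all genes and 10 of 20 heat shock genes. The ER stress element was in 0.0916% of all genes and 8 of 25 ER chaperone genes, among them HSPA5, HSP90B1 and CALR. The C/EBP-ATF response element was in 4.46% of all genes and 6 of 21 ATF4 target genes. A match is a run of letters and not a measured binding site.

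Heat shock genes and cytosolic chaperones were much lower with glutamine. Of 28 listed genes 21 were tested, of which 19 fell, none rose, and DNAJB2 and HSF2 did not pass. The median change was -1.88, against -0.01 over all tested genes, and remained -1.60 with equal totals. DNAJB1 changed by -4.32 ± 0.11 (adjusted p = 8.62e-23, limma), the lowest value among the genes named by rule. HSPH1, which helps HSP70 release its client, was at 112, 85.7 and 115 in glutamine-only against 975, 990 and 962 in deficient libraries (-3.23 ± 0.12, adjusted p = 5.64e-18). HSP90AA1, the inducible cytosolic HSP90, was at 780, 845 and 775 against 5531, 6119 and 6506 (-2.92 ± 0.10, adjusted p = 3.80e-19). The groups did not overlap in these 3 genes, which the rule for the lowest changes required. Over all 9270 tested genes, the groups did not overlap in 4616. HSPA6, a strictly inducible HSP70, was at 95.6, 79.0 and 97.9 with glutamine and 1148, 1117 and 1120 without (-3.63 ± 0.34, adjusted p = 1.33e-09). Its relatives HSPA1A and HSPA1B, close in sequence, were at 0 to 3.90 normalized counts and not tested. How reads were assigned within the family is not known, so the level of a single member is uncertain. HSF1, the factor that drives these genes, was listed at 0 in the libraries of both media, as were CCT8 and LDHA, which cells in general use, so this value does not show the gene to be silent.

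Cochaperones moved with them. FKBP4, an HSP90 partner, changed by -2.69 ± 0.15 (adjusted p = 2.82e-14), BAG3, which couples HSP70 to autophagy, by -2.49 ± 0.12 (adjusted p = 1.11e-15), and ZFAND2A, a proteasome-linked heat shock gene, by -2.57 ± 0.19 (adjusted p = 7.39e-12). The constitutive HSPA8 was at 979, 1063 and 1094 in glutamine-only and 3807, 3376 and 4081 in deficient libraries. The mitochondrial chaperonin HSPD1 fell by 1.88 on the log2 scale. All 7 tested subunits of the TRiC chaperonin, which folds actin and tubulin, fell, with a median of -0.99, and TCP1 changed by -1.84 ± 0.13 (adjusted p = 2.16e-12).

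**Figure D2:**
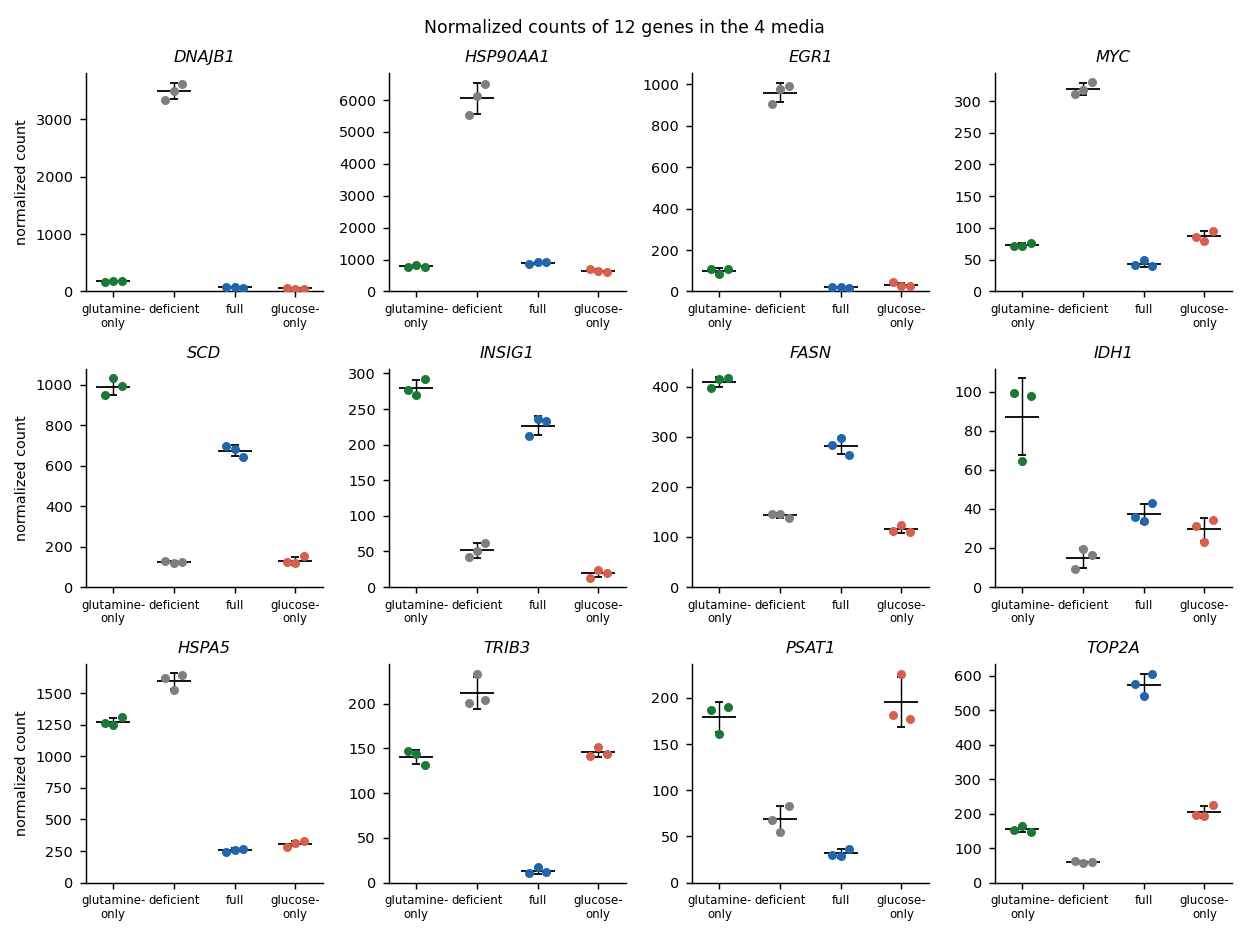
Normalized counts of 12 genes in each library (points), with the mean (line) and SD (bars) of 3 libraries, in glutamine-only, deficient, full and glucose-only medium; every axis starts at 0. DNAJB1, HSP90AA1 and EGR1 stand apart in the deficient libraries, SCD and FASN are high in both media that hold glutamine, and TRIB3 and PSAT1 are lowest in the full medium.

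Immediate early genes, which growth factors and stress switch on within minutes, were also lower. Of 19 tested members 16 fell and 1 rose, with a median of -1.83. EGR1, a zinc finger factor of this class, was at 107, 85.7 and 106 in glutamine-only against 907, 978 and 992 in deficient libraries (-3.26 ± 0.15, adjusted p = 5.78e-16). FOS, a subunit of AP-1, was at 39.7, 33.7 and 33.6 against 305, 262 and 286 (-2.96 ± 0.27, adjusted p = 8.99e-10). ATF3, also a target of ATF4, was at 10.8, 4.82 and 10.3 against 65.1, 82.1 and 59.8 (-2.92 ± 0.42, adjusted p = 2.48e-06). The member that rose was JUND (0.60 ± 0.18, adjusted p = 0.00899), a JUN family gene with a steady level in many cells. In the list of EGFR ligands and ERK feedback genes 8 of 21 rose and 9 fell. DUSP1, a phosphatase of MAP kinases, was at 18.04, 22.2 and 17.7 against 229, 203 and 217 (-3.42 ± 0.23, adjusted p = 1.64e-12). DUSP4 (0.74 ± 0.09, adjusted p = 1.62e-07) and DUSP6 (0.48 ± 0.09, adjusted p = 0.000124), which switch off ERK, moved the other way, while EGFR itself was at 189, 204 and 228 against 652, 668 and 699 (-1.70 ± 0.09, adjusted p = 1.98e-14). The median of this list was -0.17 as deposited and turned to 0.11 with equal totals.

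Growth arrest genes (3 of 18 tested rose and 11 fell, median -0.87) included GADD45A, a gene induced by DNA damage and other stress (-2.08 ± 0.19, adjusted p = 9.10e-10), and CDKN1A, the inhibitor p21 (-1.35 ± 0.13, adjusted p = 1.83e-09). Of the YAP and TEAD targets 2 of 21 rose and 13 fell (median -0.59). ANKRD1 was at 159, 157 and 163 in glutamine-only against 672, 651 and 683 in deficient libraries (-2.06 ± 0.10, adjusted p = 4.79e-16), and the matricellular gene CCN2 changed by -1.86 ± 0.12 (adjusted p = 1.04e-12). Secreted and matrix genes named by rule were DKK1, a WNT inhibitor, at 50.5, 47.2 and 48.5 against 457, 371 and 437 (-3.08 ± 0.14, adjusted p = 1.85e-16), and the collagenase MMP1, at 92.9, 99.2 and 83.0 against 729, 675 and 707 (-2.93 ± 0.12, adjusted p = 1.73e-17). THBS1 changed by -2.53 ± 0.10 (adjusted p = 7.55e-18) and FLNC, a filamin, by -2.51 ± 0.12 (adjusted p = 1.00e-15). The list of mesenchymal and matrix genes went both ways, with 15 of 28 higher and 6 lower and a median of 0.35. LAMA5, a laminin chain, was at 414, 352 and 370 against 84.6, 95.4 and 66.0 (2.21 ± 0.11, adjusted p = 2.07e-15).

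Sterol and fatty acid genes were higher with glutamine. Of 25 listed genes of cholesterol synthesis and sterol regulation 21 were tested, 18 rose and none fell, with a median of 1.30. INSIG1, which holds SREBP back in the ER and is itself a target of it, was at 277, 270 and 293 in glutamine-only against 41.7, 50.7 and 62.1 in deficient libraries (2.44 ± 0.16, adjusted p = 6.15e-13). In INSIG1 the groups did not overlap, which the rule for the highest changes required. MSMO1 (2.24 ± 0.22, adjusted p = 2.22e-09) and DHCR7 (2.17 ± 0.21, adjusted p = 3.84e-09) are enzymes of the late sterol pathway. In fatty acid and triglyceride synthesis 11 of 19 genes rose and 1 fell (median 0.61). SCD, the desaturase that makes oleate, was at 948, 1032 and 991 against 126, 118 and 124 (3.00 ± 0.10, adjusted p = 2.81e-19), and FADS2, a desaturase of polyunsaturated fats, at 184, 173 and 163 against 20.8, 30.2 and 21.7 (2.81 ± 0.14, adjusted p = 1.49e-15). FASN changed by 1.51 ± 0.10 (adjusted p = 4.06e-13), and the factors SREBF1 by 1.57 ± 0.18 (adjusted p = 4.18e-08) and SREBF2 by 1.70 ± 0.16 (adjusted p = 1.09e-09).

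Glycolysis and hypoxia genes were mostly higher. Of 21 tested glycolysis genes 14 rose and 4 fell (median 0.77). PDK1, a kinase that inhibits pyruvate dehydrogenase, was at 56.8, 61.6 and 61.5 in glutamine-only against 10.4, 13.3 and 17.9 in deficient libraries (2.07 ± 0.21, adjusted p = 4.59e-09), and PGK1 was at 330, 338 and 351 against 169, 121 and 160 (1.19 ± 0.11, adjusted p = 1.81e-09). The glucose transporter SLC2A3 (-1.37 ± 0.14, adjusted p = 8.39e-09) and the hexokinase HK2 (-1.36 ± 0.17, adjusted p = 2.45e-07) fell. Of the hypoxia targets outside glycolysis 12 of 20 rose and 3 fell (median 0.86). CA12, a carbonic anhydrase, was at 75.8, 75.1 and 79.2 against 13.02, 10.9 and 10.1 (2.66 ± 0.19, adjusted p = 2.73e-12), and BNIP3, a mitophagy receptor, changed by 1.51 ± 0.12 (adjusted p = 1.99e-11). VEGFA was at 373, 379 and 370 against 281, 232 and 271 (0.52 ± 0.10, adjusted p = 0.000126), and ADM, a peptide hormone gene of the same response, fell (-0.71 ± 0.19, adjusted p = 0.00413). Of 23 tested genes of the tricarboxylic acid cycle and anaplerosis 3 rose and 3 fell, and of 35 nuclear respiratory chain genes 5 rose and 2 fell, shares below the 19.9% and 21.6% of all genes. With equal totals 7 of the first list and 10 of the second rose and none fell. IDH1, the cytosolic isocitrate dehydrogenase, was at 99.2, 64.5 and 97.9 against 9.11, 19.3 and 16.3 (2.50 ± 0.23, adjusted p = 8.95e-10). Of 13 mitochondrially encoded messenger RNAs 1 rose and 3 fell, with a median of -0.15 as deposited, against 4 higher, none lower and a median of 0.13 with equal totals.

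Most ER chaperone genes did not fall. Of 27 tested members 13 rose and 4 fell (median 0.30). HSP90B1, the ER HSP90, was at 2743, 2767 and 2757 in glutamine-only against 2148, 2211 and 2340 in deficient libraries (0.30 ± 0.10, adjusted p = 0.0124). PDIA4, a disulfide isomerase, was at 686, 587 and 632 against 359, 360 and 346 (0.84 ± 0.10, adjusted p = 5.84e-08). HSPA5, the main ER chaperone, was at 1266, 1248 and 1310 against 1623, 1530 and 1643, a change of -0.33 ± 0.09 (adjusted p = 0.00593) that was -0.04 with equal totals (adjusted p = 0.799) and -0.01 with quantile normalization. XBP1, the spliced factor of the unfolded protein response, was at 129, 130 and 134 against 281, 302 and 316 (-1.19 ± 0.12, adjusted p = 1.03e-08), and DNAJB9, its target, also fell (-1.13 ± 0.15, adjusted p = 6.35e-07). CRELD2 (1.25 ± 0.48, adjusted p = 0.0357) and HYOU1 (1.25 ± 0.45, adjusted p = 0.0269) rest on few reads. CRELD2 had 0.78 with an adjusted p of 0.228 without deficient replicate A, and HYOU1 0.91 with 0.143 without deficient replicate B.

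Genes of the amino acid response split. Of 23 tested members of the list of ATF4 and its targets 6 rose and 5 fell, near the shares of all genes, and the median of -0.07 turned to 0.19 with equal totals. ATF4 itself was at 143, 138 and 159 in glutamine-only and 137, 146 and 142 in deficient libraries (0.05 ± 0.11, adjusted p = 0.752), so the groups overlapped. PSAT1, of serine synthesis, was at 187, 161 and 190 against 67.7, 54.3 and 83.1 (1.39 ± 0.14, adjusted p = 9.93e-09). SLC7A11, the cystine importer, was at 344, 324 and 314 against 208, 188 and 188 (0.75 ± 0.11, adjusted p = 2.49e-06). PPP1R15A, which restarts translation, was at 162, 159 and 158 against 643, 729 and 641 (-2.06 ± 0.11, adjusted p = 1.98e-14), and DDIT3, known as CHOP, at 37.0, 30.8 and 22.4 against 88.5, 89.4 and 83.1 (-1.53 ± 0.29, adjusted p = 0.000107). TRIB3, a pseudokinase, was at 147, 144 and 131 against 200, 233 and 204 (-0.59 ± 0.14, adjusted p = 0.00151), which setting equal totals took to -0.31 (adjusted p = 0.118). GDF15, a stress hormone, was at 50.5, 42.4 and 67.1 against 76.8, 72.4 and 67.6 (-0.45 ± 0.26, adjusted p = 0.173). ASNS, asparagine synthetase, did not reach the filter, at 5.41, 5.78 and 4.66 against 3.90, 2.41 and 3.11.

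Amino acid transporters leaned higher, with 6 of 17 rising and 2 falling (median 0.44). The glycine transporter SLC6A9 was at 43.3, 29.9 and 41.0 in glutamine-only against 11.7, 18.1 and 8.54 in deficient libraries (1.54 ± 0.27, adjusted p = 4.17e-05), while SLC38A2, induced by amino acid want, fell (-0.68 ± 0.09, adjusted p = 1.35e-06). Of serine and one-carbon genes 6 of 11 rose and 2 fell. Of tRNA synthetases 3 of 19 rose and 6 fell, against 19.9% and 21.6% of all genes. The median of the tRNA synthetases was -0.08 and became 0.20 with equal totals, where 5 rose and 2 fell. Of glutamine, glutamate and proline metabolism genes 2 of 17 rose and 6 fell (median -0.31), against 3 higher and 2 lower with equal totals (median -0.03). GLUL, which makes glutamine from glutamate and ammonia, was at 71.3, 61.6 and 67.1 against 105, 161 and 129 (-0.95 ± 0.14, adjusted p = 4.32e-06). GPT2, a mitochondrial alanine aminotransferase that takes nitrogen from glutamate, changed by 1.00 ± 0.28 (adjusted p = 0.00556), and PPAT, the first enzyme of purine synthesis, by -1.51 ± 0.24 (adjusted p = 1.03e-05). BCAT1, a branched-chain aminotransferase, was at 297, 340 and 324 against 111, 94.2 and 120 (1.56 ± 0.10, adjusted p = 8.27e-13).

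Genes of mitosis were higher: 19 of 35 tested rose and 1 fell (median 0.56), against 19.9% and 21.6% of all genes. ASPM, a spindle pole gene, was at 121, 134 and 132 in glutamine-only against 28.6, 37.4 and 45.0 in deficient libraries (1.80 ± 0.13, adjusted p = 1.15e-11), and TOP2A, a topoisomerase, at 152, 164 and 147 against 62.5, 58.0 and 60.6 (1.34 ± 0.10, adjusted p = 1.85e-11). Ki-67 (MKI67) was at 125, 122 and 138 against 65.1, 100.2 and 83.1 (0.65 ± 0.12, adjusted p = 7.48e-05). Replication-dependent histones, whose near-identical copies share reads and are uncertain one by one, rose in 17 of 32 tested and fell in none (median 0.44), with the linker histone H1-4 at 1.25 ± 0.11 (adjusted p = 2.25e-10). Of 30 tested DNA replication genes 2 were higher and 1 lower (median 0.08), shares below those of all genes. With equal totals 7 were higher and none lower (median 0.33). RRM2, a ribonucleotide reductase subunit that is also counted with nucleotide synthesis, changed by 1.45 ± 0.20 (adjusted p = 1.23e-06). Of 25 tested pentose phosphate and nucleotide synthesis genes 2 rose and 8 fell (median -0.31), against 19.9% and 21.6% of all genes. With equal totals 7 were higher and 3 lower (median -0.04).

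The growth machinery moved the other way. Of 30 tested genes of ribosome biogenesis and MYC 27 fell and none rose (median -0.98, and -0.70 with equal totals). MYC was at 71.3, 71.3 and 76.4 in glutamine-only against 311, 318 and 329 in deficient libraries (-2.11 ± 0.12, adjusted p = 2.86e-14). DDX21, a nucleolar helicase, was at 185, 190 and 209 against 545, 523 and 651 (-1.55 ± 0.10, adjusted p = 1.30e-12). Cytosolic ribosomal protein genes, which share reads with many pseudogenes, fell in 30 of 52 tested and rose in none, with a median of -0.27 that was 0.01 with equal totals, where 4 fell and 1 rose. Proteasome genes fell in 14 of 33 tested and rose in 1 (median -0.36), with 3 lower and 2 higher under equal totals. Of polyamine genes 6 of 10 fell, among them ODC1, the first enzyme of the pathway (-1.72 ± 0.14, adjusted p = 7.70e-11), and 2 rose, against 3 lower and 2 higher with equal totals. Splicing regulators went both ways, 5 of 22 higher and 7 lower, against 19.9% and 21.6% of all genes. Their median of -0.16 became 0.12 with equal totals, where 8 were higher and 5 lower.

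Of the NRF2 targets of redox and iron defence 9 of 20 fell and 2 rose (median -0.29). With equal totals 7 fell and 4 rose, and the median was -0.01. HMOX1, haem oxygenase, was at 37.9, 33.7 and 30.8 in glutamine-only against 250, 312 and 257 in deficient libraries (-2.96 ± 0.44, adjusted p = 4.71e-06), and GCLM, of glutathione synthesis, changed by -1.66 ± 0.14 (adjusted p = 1.58e-10). The ferritin chains FTL (-1.004 ± 0.11, adjusted p = 1.26e-08) and FTH1 (-1.28 ± 0.15, adjusted p = 1.14e-07) have pseudogenes. Metallothioneins, which bind zinc and share sequence, fell in 4 of 6 tested and rose in none, MT2A being at 479, 508 and 564 against 850, 958 and 1084 (-0.89 ± 0.11, adjusted p = 1.62e-07). Of 19 hexosamine and O-GlcNAc genes 5 rose and 5 fell, against 19.9% and 21.6% of all genes. With equal totals 7 were higher and 3 lower. GFPT1, which uses glutamine to make glucosamine phosphate, was at 293, 289 and 319 against 177, 138 and 167 (0.91 ± 0.12, adjusted p = 9.69e-07), and UAP1, later in the same pathway, at 52.3, 80.9 and 59.7 against 286, 275 and 308 (-2.18 ± 0.14, adjusted p = 4.21e-13). Of 10 tested MondoA and ChREBP targets 7 fell, with 3 lower and 1 higher under equal totals. TXNIP, the arrestin that glucose induces, was low in both media, at 8.12, 12.5 and 7.46 against 15.6, 16.9 and 14.8 (-0.72 ± 0.17, adjusted p = 0.00143), and edgeR gave an adjusted p of 0.0679.

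Interferon-stimulated genes rose in 9 of 19 tested and fell in 1 (median 0.46), with OAS2 at 1.35 ± 0.26 (adjusted p = 0.000149). Of 17 NF-kB targets 4 were higher and 5 lower, near the shares of all genes, with a median of -0.24 that became 0.03 with equal totals, where 6 were higher and 5 lower. ICAM1, an adhesion receptor, was at 79.4, 84.8 and 84.8 in glutamine-only against 24.7, 33.8 and 24.8 in deficient libraries (1.56 ± 0.15, adjusted p = 2.09e-09), and TNFAIP3, an inhibitor of the pathway, at 10.8, 16.4 and 8.39 against 44.3, 60.4 and 67.6 (-2.21 ± 0.28, adjusted p = 3.79e-07). Autophagy and lysosome genes (5 of 32 higher, 6 lower) had a median of -0.07 that became 0.21 with equal totals, where 10 were higher and 5 lower. The mTORC1 nutrient sensing genes (5 of 23 higher, 6 lower) had one of 0.05 that became -0.03 with quantile normalization, and 7 were higher and 3 lower with equal totals. RRAGC, a Rag GTPase of the lysosome, fell (-1.20 ± 0.21, adjusted p = 3.96e-05) and its partner RRAGA rose (0.94 ± 0.19, adjusted p = 0.000251). Among 20 tested apoptosis genes 3 rose and 5 fell (median 0.15). With equal totals 7 were higher and 2 lower, and with quantile normalization 5 were higher and 3 lower. As deposited, the counts of the lysosome, mTORC1 and apoptosis lists were near the 19.9% higher and 21.6% lower of all genes. Other genes named for the highest changes were DPYSL2, a cytoskeletal phosphoprotein, at 359, 321 and 376 against 53.4, 59.2 and 69.1 (2.52 ± 0.11, adjusted p = 1.17e-16), and IGFBP4, a binding protein of insulin-like growth factors, at 925, 983 and 967 against 241, 251 and 192 (2.08 ± 0.10, adjusted p = 9.00e-16).

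The same nutrient was also added on top of glucose in the series, as full against glucose-only medium, and the difference of the effects of glutamine without and with glucose was tested in the same model. Of 9270 genes 1020 (11%) had a higher and 1438 (15.5%) a lower effect without glucose. Between full and glucose-only medium 1249 genes (13.5%) were higher and 875 (9.44%) lower in full medium. Among genes called in both pairs 820 moved the same way, 134 were higher with glutamine without glucose and lower with it in the presence of glucose, and 207 the reverse. Across the 9270 genes the effects in the pairs, which share no library, had a Pearson correlation of 0.23 and a Spearman correlation of 0.21. Genes are not independent replicates.

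Heat shock genes had the lowest median of this contrast among the 39 lists, -2.17: 19 of 21 had a lower effect without glucose, and between full and glucose-only medium 6 were higher and 1 lower in full medium. DNAJB1 averaged 69.8 ± 3.40 in full and 55.7 ± 8.13 in glucose-only medium (SD, n = 3 each), and its contrast was -4.64 ± 0.15 (adjusted p = 1.69e-19). In the same contrast EGR1 had -2.62 ± 0.22 (adjusted p = 3.56e-10). HSPA6 was nearly unread with glucose, at 0.612 ± 1.06 in full and 1.10 ± 1.05 in glucose-only medium, and its contrast of -3.20 passed with limma but not with edgeR (adjusted p = 0.188) or DESeq2 (0.194). The amino acid response went the other way: 17 of 23 ATF4 list members had a higher and 1 a lower value of the contrast (median 1.30), and 19 of 23 were lower in full than in glucose-only medium. PSAT1 averaged 31.5 ± 4.52 in full and 195 ± 27.0 in glucose-only medium, so that its contrast was 3.99 ± 0.20 (adjusted p = 1.43e-14), the highest of the genes named by rule. TRIB3 stood at 13.5 ± 3.87 in full and 146 ± 5.32 in glucose-only medium (2.79 ± 0.20, adjusted p = 2.73e-11). Sterol genes rose in both pairs, 18 of 21 without glucose and 17 of 21 with it, and 1 had a higher and 5 a lower value of the contrast. INSIG1 averaged 227 ± 13.3 in full and 19.1 ± 5.48 in glucose-only medium (contrast -1.10 ± 0.22, adjusted p = 0.000496).

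**Figure D3:**
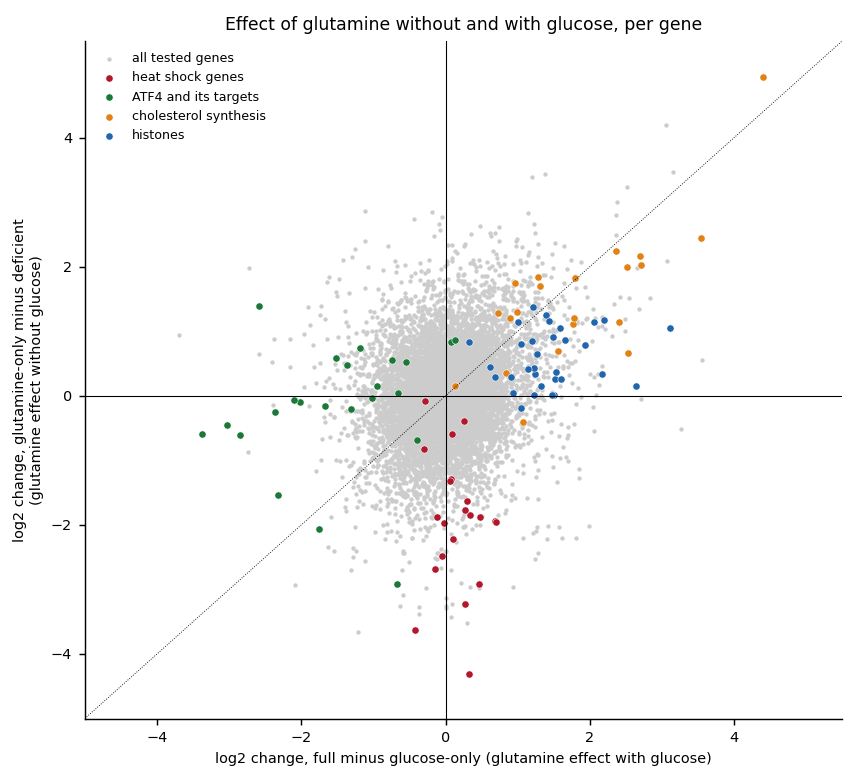
Log2 change with glutamine without glucose (vertical, glutamine-only minus deficient) against that with glucose (horizontal, full minus glucose-only) for all tested genes (grey) and 4 lists (colours), with a dotted line of equal effects. Heat shock genes lie below 0 on the vertical axis near 0 on the horizontal one, ATF4 targets lie to the left, and cholesterol genes lie at the upper right.

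**Figure D4:**
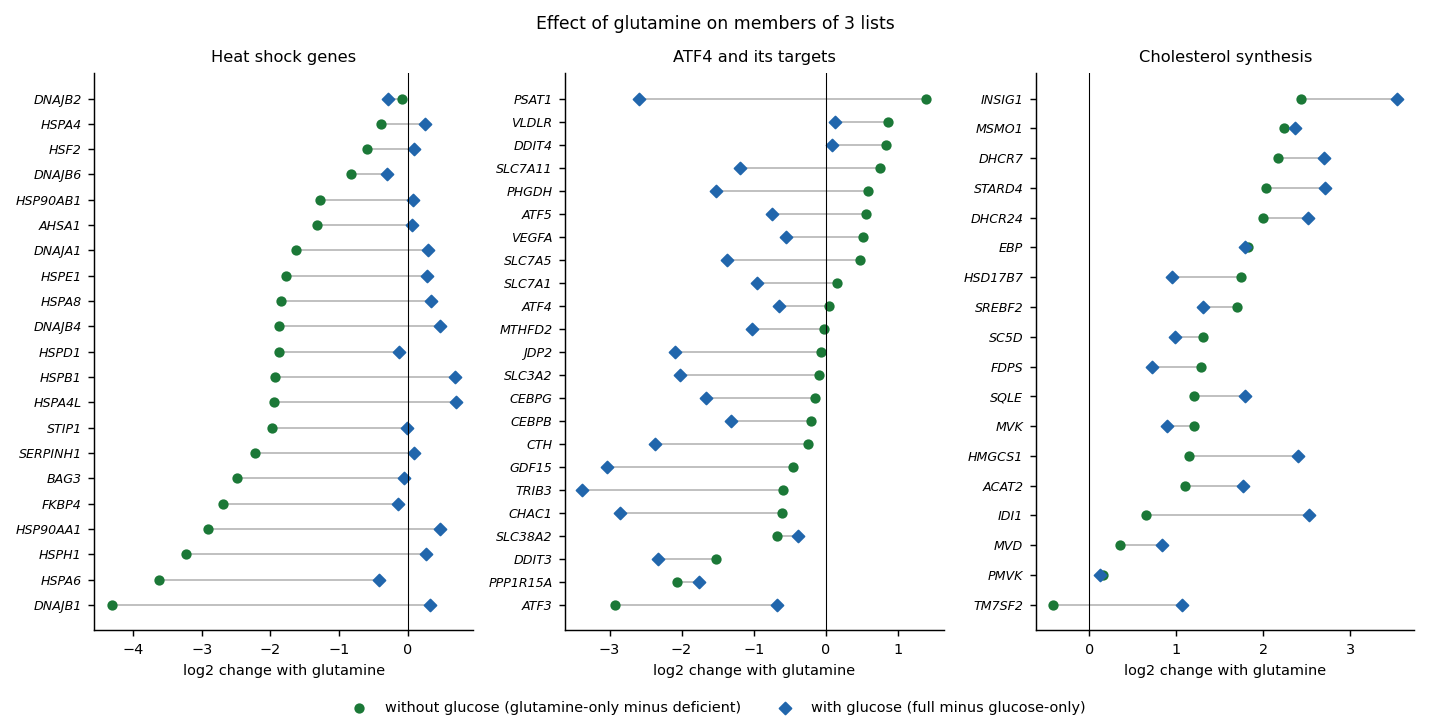
Log2 change with glutamine for tested members of 3 lists (3 members of the cholesterol list are not drawn), without glucose (circles, glutamine-only minus deficient) and with glucose (diamonds, full minus glucose-only), ordered by the value without glucose. The values of DNAJB1 are -4.32 without and 0.33 with glucose, those of PSAT1 are 1.39 and -2.59, and those of INSIG1 are 2.44 and 3.54.

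Glutamine-only and glucose-only medium each lack 1 nutrient. Between them 766 genes (8.26%) were higher and 468 (5.05%) lower in glutamine-only medium. Of ER chaperone genes 22 of 27 were higher and 1 lower in glutamine-only medium (median 1.58), HSPA5 with a mean of 1274 ± 31.6 in glutamine-only and 309 ± 21.1 in glucose-only medium (SD, n = 3 each; 2.04 on the log2 scale, adjusted p = 2.89e-16). Sterol genes were higher in 15 of 21 and ribosomal protein genes in 40 of 52, and none of either was lower. Histones were lower in 26 of 32. The contrast of TXNIP between these media was -4.19 (adjusted p = 4.21e-17), with 9.36 ± 2.75 in glutamine-only and 185 ± 10.5 in glucose-only medium.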

How the data were processed

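Gene-level signal values, numbers of reads divided by 1 size factor per library, were made by the authors and deposited as normalized counts; per the submitters' processing notes the tools were FastQC, HISAT2, Subread and DESeq2 with GRCh38.p14, and versions are not given in the sources used here. In every library 100% of the deposited values were whole multiples of 1 step within 0.01 read, so reads were recovered, 875033 to 1473587 per library. Genes at 10 or more in 3 or more of 12 libraries were tested with limma 3.58.1 (trend) in R 4.3.3 on log2(normalized count + 1), pseudocount 1, with a mean per medium over 12 libraries and Benjamini-Hochberg adjusted p under 0.05, two-sided. The alternatives were edgeR 4.0.16 and DESeq2 1.42.0 on recovered reads, other scalings, pseudocounts and filters, and each library left out. The test was checked on simulated data with set changes in few genes, higher and lower alike. In those data every gene had the same relative spread beyond counting noise, which need not hold in the libraries. That check does not bear on the scale of the libraries, and its values are not reported here. The members, the 39 lists and the rule for named genes were chosen with earlier results of these data known. The rule names the 15 highest and 15 lowest changes with a mean of at least 100 and no overlap, the 6 highest and lowest of the contrast of effects, up to 4 members of each list, and anchor genes; other members named were chosen after their values were seen. Some listed genes are counted in their lists but not reported here.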

Additional observations from a re-analysis of the deposited data

Results flagged for a closer look

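The effect of glutamine differed between the glucose-free and the glucose-containing pair of media in 2458 genes by the tested contrast (glutamine-only minus deficient, minus full minus glucose-only). Among the genes named by rule the contrast, on the log2 scale, was -4.64 for DNAJB1, -3.50 for HSPH1, -3.38 for HSP90AA1, -3.20 for HSPA6, -2.62 for HSPB1 and -2.62 for EGR1, whose RNA was lower with glutamine when glucose was absent. The value of HSPA6 did not pass with edgeR (adjusted p = 0.188) or DESeq2 (adjusted p = 0.194). The contrast was 3.99 for PSAT1, 2.92 for RBCK1, 2.79 for TRIB3, 2.40 for GFPT1, 2.07 for SLC37A2 and 2.05 for LAMA5. A positive value need not be a rise without glucose: TRIB3 was lower with glutamine in both pairs as deposited, and more so with glucose. RBCK1, a subunit of a ubiquitin ligase complex, was at 161, 138 and 160 in glutamine-only and 108, 115 and 95.5 in deficient libraries, and averaged 35.6 ± 6.11 in full and 191 ± 13.5 in glucose-only medium (SD, n = 3 each).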

How the results depend on the processing

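Of 195 values of named genes under 3458 alternatives, 3316 kept their direction and side of the threshold, 125 lost the call, 15 gained it and 2 turned sign: MT-ND4 had 0.0156 with equal totals and 0.0741 with quantile normalization. The 3844 genes called between glutamine-only and deficient medium were 3893 with edgeR, 2757 with DESeq2, 3900 without the filter and 777 among genes with a mean of at least 100 (285 higher, 492 lower). Equal totals gave 2826 higher and 940 lower. The contrast of effects called 1495 genes with DESeq2, 632 with a mean of at least 100 and 1496 at an adjusted p under 0.01. Glutamine-only against glucose-only called 604 with DESeq2, 817 with a constant prior variance, 486 with a mean of at least 100 and 656 at an adjusted p under 0.01. The cause of these shifts was not tested, beyond that fewer genes enter with a mean of at least 100. Of 753 alternatives for the 42 list medians 108 moved. Under equal totals 39 of the 42 medians moved. With a replicate block for the letters, limma called 3874 genes. Same-letter libraries of the media correlated at 0.0177, 0.0215 and 0.144 in their deviations from the medium's mean. Libraries of different letters correlated at -0.115 to 0.0853. Whether the letters pair the libraries cannot be told from these values. Depth limits genes with few reads.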

Other observations

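Noncoding RNA moved with the medium too. Of 276 tested lncRNA genes 99 were higher and 34 lower in glutamine-only than in deficient medium, with a median log2 change of 0.46. Of 113 tested snoRNA genes 3 were higher and 54 lower (median -0.37), but 4 were higher and 8 lower with equal totals, and the median was then -0.09. Of 19 mitochondrial tRNA genes 1 was higher and 10 lower (median -0.53), against 2 higher and 4 lower with equal totals (median -0.25). Zinc finger genes with a ZNF symbol had 50 of 245 higher, near the 19.9% of all tested genes, and 34 lower, against 21.6% of all (median 0.16). In the contrast of effects 51 had a higher and 13 a lower effect of glutamine without glucose than with it, against 11% and 15.5% of all tested genes.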
